A study of Mus musculus with 12 samples.

Results

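The Toll-like receptors of the mouse that the count table lists under the names Tlr1 to Tlr9 were described across hippocampal microglia of 28-day-old pups. The rule covers 9 genes, of which 7 of the 545 endogenous genes of the table are members: Tlr3, Tlr8 and Tlr9, which act in endosomes, and Tlr1, Tlr2, Tlr4 and Tlr5, which act at the cell surface. Tlr6 and Tlr7 were not analysed here. The mice of the first group had undergone brief daily separation (BDS), in which pups were kept from their mother for 15 min each day over postnatal days 1 to 21, and the other mice were controls. Both groups were male Balbc mice with no transgene named in the labels, with 6 samples each. Per the submitters' design text, no litter gave more than 1 sample. Microglia had been enriched on a Percoll gradient and sorted, and transcripts were counted as fluorescent barcodes on a NanoString nCounter immune panel after 5 rounds of PCR.

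Toll-like receptors are membrane proteins that recognise molecules of microbes and of damaged cells. Those of the cell surface bind lipids, lipoproteins and flagellin, and those of endosomes bind nucleic acids that the cell has taken up. Ligand binding recruits the adaptors Myd88 or Ticam1, which lead through IRAK kinases and Traf6 to NF-kB and interferon regulatory factors. Microglia, the resident macrophages of the brain, are the cells of the brain best known for carrying these receptors.

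The total count of endogenous genes was 577135 to 1103445 per sample in BDS and 827591 to 1341132 in controls. The geometric mean of the 6 housekeeping genes used for scaling, divided by its geometric mean over samples, was 0.609, 0.649 and 0.854 in BDS 21, BDS 25 and BDS 55, and 0.875 to 1.47 in the other 9 samples. In these 3 BDS samples the count of the housekeeping gene Rpl19 divided by that of Polr2a was 0.465 to 0.790, against 0.113 to 0.267 in the other 9. Genes above background numbered 324 ± 20.5 in BDS and 361 ± 18.2 in controls (SD, n = 6 each; two-sided exact permutation test, p = 0.0087, or 0.035 after adjustment for 4 measures). The listed microglial markers were all detected, 8 of 8, with a summed level of 207629 to 268610 normalized counts in BDS and 218238 to 232855 in controls. The largest part of that sum was Csf1r, at 97734 ± 21438 in BDS and 84924 ± 3867 in controls (SD, n = 6 each). Of the 8, 6 had a log2 fold change (BDS over control) below 0 (75%, against 66.1% of all tested genes). Their median was -0.11, and none had an unadjusted p under 0.05 (edgeR). As these are bulk samples, fewer cells of a type and less RNA per cell cannot be told apart.

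Across the family, Tlr9, Tlr3 and Tlr5 had lower levels in BDS at an unadjusted p under 0.05, at 0.75, 0.76 and 0.78 times the control level, while Tlr1, Tlr4 and Tlr2 had lower and Tlr8 higher values that did not reach it. No receptor passed the adjusted threshold of 0.05. All 7 passed the filter on low counts, Tlr8 at its limit of 5 of 12 samples. At an unadjusted p under 0.05 (edgeR quasi-likelihood test), 11.5% of the 357 tested genes were lower in BDS and 0.84% were higher, and the lower ones held 3 of the 7 receptors. With TMM scaling, which centres on the tested genes and not on the housekeeping genes, the counts were 14 lower genes (3.92%) and 18 higher in place of 41 and 3, and the same 3 receptors were lower. The median log2 fold change of the 7 receptors was -0.36, against -0.10 for all tested genes, and 6 of the 7 lay below 0, as did 66.1% of the tested genes. No gene of the panel passed the adjusted threshold (0% of 357), while 44 had an unadjusted p under 0.05. By DESeq2 with the same scaling 6 genes passed (1.68%) and by voom with quality weights 16 (4.48%). The voom calls held Tlr9, Tlr3, Tlr5 and Tlr1. That fit gave BDS 7 the lowest sample weight, 0.42, where the other samples had weights of 0.74 to 2.00.

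**Figure D1:**
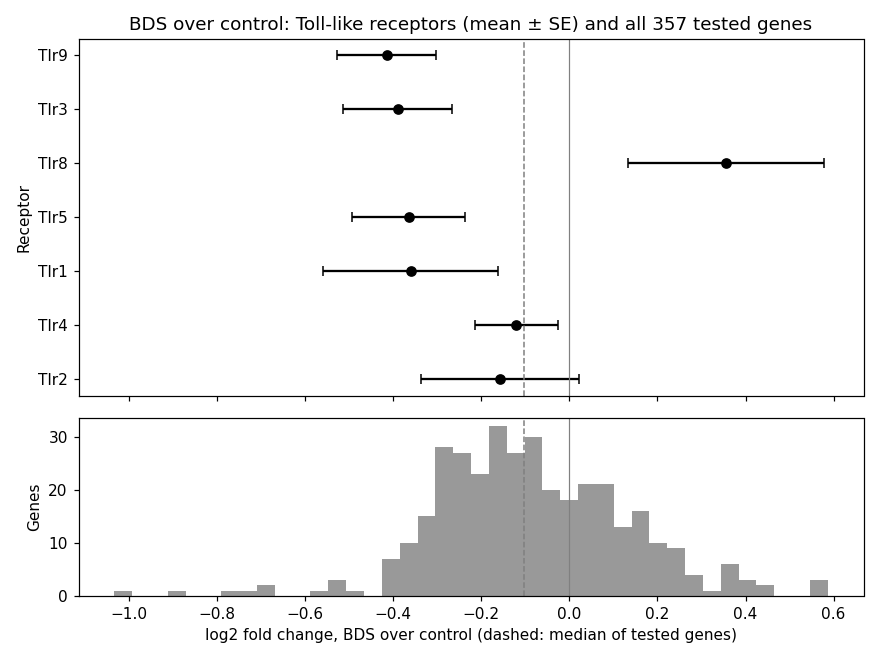
The upper panel plots the log2 fold change (BDS over control) of each receptor with its standard error, and the lower panel counts all 357 tested genes over the same axis; the dashed line marks their median. Tlr9, Tlr3, Tlr5 and Tlr1 lie between -0.41 and -0.36, Tlr4 and Tlr2 lie near the panel median of -0.10, and Tlr8 lies at 0.36.

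Tlr9, the endosomal sensor of unmethylated CpG DNA, had the smallest p of the family. Its level was 3082 normalized counts in the lowest, 3930 in the median and 5020 in the highest BDS sample, against 4974, 5251 and 5609 in controls. All BDS samples but BDS 35 lay below every control, so the groups overlapped by 1 sample. None of the 7 receptors had all 6 BDS samples below every control, as 1.12% of tested genes did. Its group mean was 3971 ± 772 in BDS and 5293 ± 226 in controls (SD, n = 6 each), or -0.41 ± 0.11 on the log2 scale (SE; edgeR, unadjusted p = 0.0023, adjusted p = 0.17). The spread between animals was wider in BDS, with a coefficient of variation of 19.4% against 4.26% in controls. This was not particular to Tlr9, as every other receptor also had the wider spread in BDS. For Tlr1 the values were 40.5% in BDS and 12.9% in controls, and for Tlr4 13.8% and 6.17%. DESeq2 with the same scaling gave Tlr9 an adjusted p of 0.043, in a test where 1.68% of genes were called lower.

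Tlr3, the endosomal sensor of double-stranded RNA, signals through Ticam1 and not through Myd88. It had 2649 normalized counts in the lowest, 3624 in the median and 4466 in the highest BDS sample, against 4291, 4723 and 5361 in controls. Of the 6 BDS samples, 4 lay below every control and all 6 lay below the control mean. The log2 fold change was -0.39 ± 0.12 (SE; edgeR, unadjusted p = 0.0066, adjusted p = 0.25).

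Tlr8, the endosomal receptor whose human counterpart senses single-stranded RNA, was near the detection limit. Its raw count was 11 to 28 in BDS and 12 to 30 in controls, where the background limit (mean plus 2 SD of the negative-control probes) was 18.2 to 21.8 in BDS and 15.3 to 21.3 in controls. It lay above that limit in 2 of 6 BDS samples and 3 of 6 controls. Before scaling the group means were 19.5 and 19.7 raw counts in BDS and controls. After division by the housekeeping factors they were 22.3 ± 7.0 in BDS and 16.9 ± 2.7 in controls (SD, n = 6 each), which is 0.36 ± 0.22 on the log2 scale (SE; edgeR, adjusted p = 0.45). With background subtracted the log2 fold change was 0.22 (limma, unadjusted p = 0.64). It was 0.51 without BDS 35 (edgeR, unadjusted p = 0.018, adjusted p = 0.22) and 0.09 without BDS 21, BDS 25 and BDS 55. Of the 22 alternatives that kept Tlr8, the one without BDS 35 was the 1 with an unadjusted p under 0.05.

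**Figure D2:**
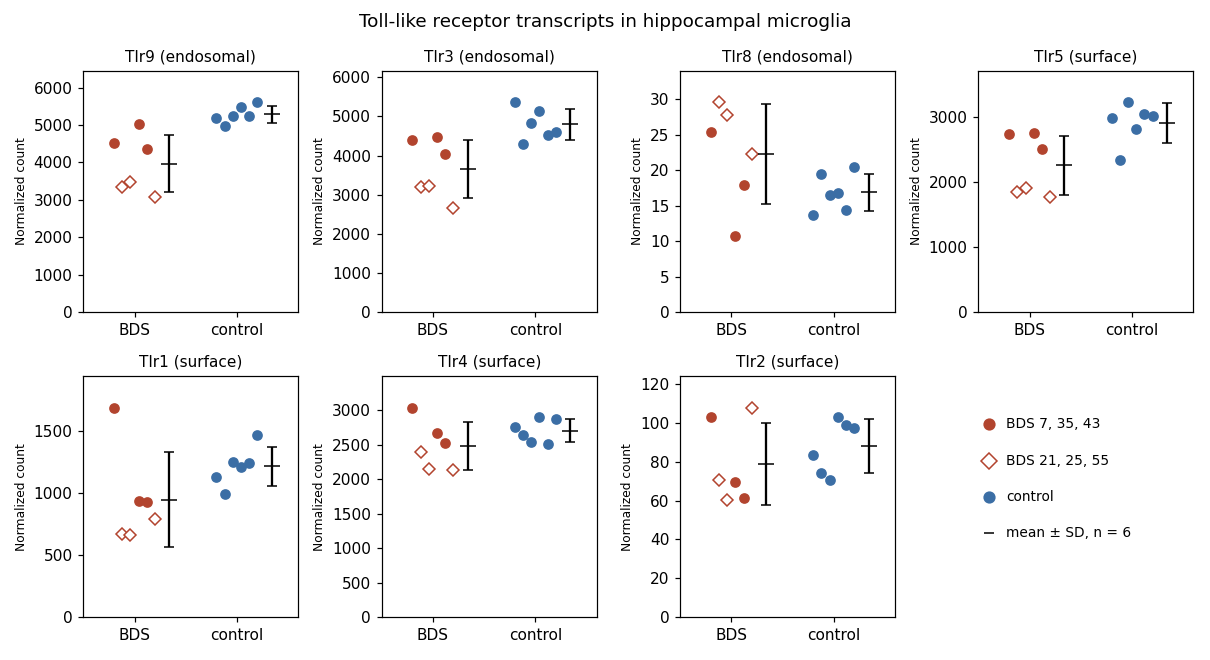
Each panel plots the normalized count of 1 receptor, with 1 point per sample, BDS in red and control in blue; open diamonds are BDS 21, BDS 25 and BDS 55, and the black bar gives mean ± SD over 6 samples. For Tlr9, Tlr3 and Tlr5 the open diamonds lie lowest, and for Tlr9 only BDS 35 lies within the range of the controls.

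Among the surface receptors, Tlr5, which recognises bacterial flagellin, had values closest to those of Tlr9 and Tlr3. It had 1771 normalized counts in the lowest, 2212 in the median and 2750 in the highest BDS sample, against 2343, 2998 and 3229 in controls. All 6 BDS samples lay below the control mean and 3 lay below every control. The log2 fold change was -0.36 ± 0.13 (SE; edgeR, unadjusted p = 0.013, adjusted p = 0.25).

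Tlr1, which pairs with Tlr2 to bind triacylated lipoproteins, had a nearly equal log2 fold change of -0.36 with a larger error of 0.20 (SE; edgeR, adjusted p = 0.43). It had 664 normalized counts in the lowest, 861 in the median and 1694 in the highest BDS sample, against 993, 1231 and 1471 in controls. In BDS 5 of 6 samples lay below every control and BDS 7 lay above every control. Without BDS 7 the log2 fold change was -0.61, and the adjusted p was 0.047 (edgeR). That fit leaves out the BDS sample with the highest Tlr1 value. In it 4 of 351 genes passed the adjusted threshold and 95 had an unadjusted p under 0.05. In the main fit these numbers were 0 and 44 of 357. The log2 fold change of Tlr1 was -0.04 when BDS 21, BDS 25 and BDS 55 were left out.

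Tlr4, the receptor for bacterial lipopolysaccharide, had the log2 fold change closest to 0 of the 7 receptors. It had 2133 normalized counts in the lowest, 2459 in the median and 3041 in the highest BDS sample, against 2509, 2695 and 2899 in controls, and the log2 fold change was -0.12 ± 0.09 (SE; edgeR, adjusted p = 0.54). That value lay next to the panel median of -0.10. With 1 sample left out it ran from -0.19 without BDS 7 (edgeR, unadjusted p = 0.042, adjusted p = 0.17) to -0.08 without BDS 55, and voom gave -0.18 (unadjusted p = 0.045, adjusted p = 0.17). Tlr2, the partner of Tlr1, was measured at low counts, 39 to 113 raw counts in BDS and 73 to 143 in controls. Its normalized level was 60.1 to 107.7 in BDS and 70.6 to 103.1 in controls, so the BDS range enclosed that of the controls (log2 fold change -0.16 ± 0.18, SE; edgeR, adjusted p = 0.68). That fold change was -0.27 without BDS 55, -0.25 without BDS 7, -0.094 without BDS 25 and -0.090 without BDS 43.

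The promoters of Tlr9, Tlr3 and Tlr5 are shown because these receptors had lower values together. Each run is the 250 bases before the gene's start in RefSeq on GRCm38.p6, 5′ to 3′ on the gene's strand, at chr9:106222348-106222597 (+) for Tlr9, chr8:45410381-45410630 (-) for Tlr3 and chr1:182954538-182954787 (+) for Tlr5. Capitals mark letters that match 1 of 4 motifs searched on both strands.
Tlr9: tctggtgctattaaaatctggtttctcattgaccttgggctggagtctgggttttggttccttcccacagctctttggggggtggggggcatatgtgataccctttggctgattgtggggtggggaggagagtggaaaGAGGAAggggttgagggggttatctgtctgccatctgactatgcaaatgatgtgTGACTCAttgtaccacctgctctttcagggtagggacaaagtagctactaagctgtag
Tlr3: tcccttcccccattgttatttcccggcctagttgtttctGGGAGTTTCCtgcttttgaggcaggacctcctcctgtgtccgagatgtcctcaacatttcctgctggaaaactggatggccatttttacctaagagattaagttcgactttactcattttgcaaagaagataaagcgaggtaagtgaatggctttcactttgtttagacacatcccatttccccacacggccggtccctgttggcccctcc
Tlr5: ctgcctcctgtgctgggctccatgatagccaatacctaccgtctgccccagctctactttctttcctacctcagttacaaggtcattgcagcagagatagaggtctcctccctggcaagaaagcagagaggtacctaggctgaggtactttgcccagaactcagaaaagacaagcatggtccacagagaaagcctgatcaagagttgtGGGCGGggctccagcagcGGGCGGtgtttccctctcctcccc
The motifs were the AP-1 element TGANTCA, the ETS or PU.1 core GAGGAA, the NF-kB consensus and the GC box GGGCGG. Among 32851 promoters of this length, 6.75% held the AP-1, 23.3% the ETS, 7.25% the NF-kB and 32.7% the GC box letters. Tlr9 held the AP-1 and ETS letters, Tlr3 held the NF-kB letters 202 to 211 bases before the start, and Tlr5 held 2 GC boxes. No motif of the 4 was found in all 3 windows. A match of letters is a description of these windows and no evidence of binding.

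The receptors were then compared within each sample with the median of all 357 tested genes. In BDS 21, BDS 25 and BDS 55, the samples with the lowest housekeeping counts, Tlr9 was on average -0.68 from its control mean on the log2 scale, Tlr3 -0.67, Tlr5 -0.65 and Tlr1 -0.77. In BDS 7, BDS 35 and BDS 43 the averages were -0.19, -0.16, -0.12 and -0.09 for the same genes. The panel median was -0.08 in both sets of samples. Tlr4 averaged -0.28 in the first 3 samples and 0.02 in the other 3. Of the 7 receptors, 5, 6 and 5 lay below every control in BDS 21, BDS 25 and BDS 55, where 27.7%, 36.1% and 33.1% of all tested genes did. In BDS 7, BDS 35 and BDS 43 the counts were 1, 3 and 4 receptors, and the shares of all tested genes were 18.5%, 30.3% and 28%. With those first 3 samples left out, Tlr9 had a log2 fold change of -0.19 (edgeR, unadjusted p = 0.017, adjusted p = 0.79), Tlr3 of -0.16 and Tlr5 of -0.12. There 5.52% of 362 genes were lower at an unadjusted p under 0.05, and 1 of the 7 receptors was. The part of housekeeping counts in these values was not tested beyond this and a fit with the housekeeping factor as a covariate. In that fit the log2 fold changes were -0.29 for Tlr9, -0.30 for Tlr3 and -0.25 for Tlr5. The unadjusted p was 0.011, 0.031 and 0.060, and the adjusted p was 0.45, 0.66 and 0.77 (edgeR). There 22 of 357 genes were lower at an unadjusted p under 0.05 and 0 were higher. In the same fit Tlr1 was at -0.14, Tlr4 at -0.03, Tlr2 at -0.07 and Tlr8 at 0.25 (unadjusted p = 0.43, 0.71, 0.74 and 0.35).

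**Figure D3:**
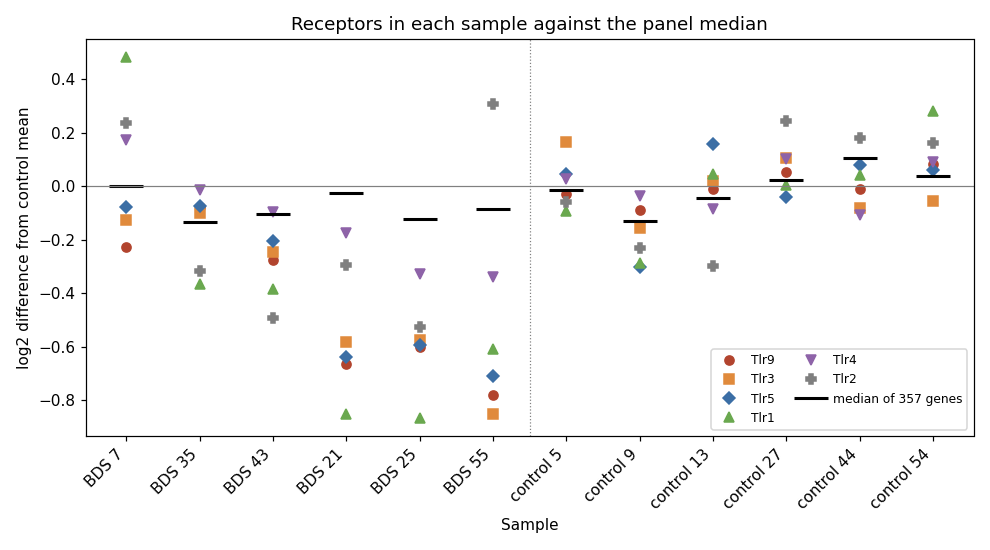
Points give the log2 difference of each receptor from its control mean in every sample, BDS samples to the left of the dotted line, and the black bars give the median of 357 tested genes. Tlr8 is not drawn. In BDS 21, BDS 25 and BDS 55 the points of Tlr9, Tlr3, Tlr5 and Tlr1 lie between -0.86 and -0.57, well below the bars.

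Ratios of raw counts between receptors of the same sample do not depend on the scaling. Their absolute value includes the efficiency of each probe, so only the same ratio was compared between samples. The count of Tlr9 over that of Tlr4 was 1.40 in the lowest, 1.56 in the median and 1.88 in the highest BDS sample, against 1.88, 1.92 and 2.09 in controls. All 6 BDS samples lay below all 6 controls, by a narrow margin of 1.877 in BDS 35 and 1.883 in control 5. The mean ratio was 1.59 ± 0.19 in BDS and 1.96 ± 0.09 in controls (SD, n = 6 each), a difference of -0.31 on the log2 scale. It was -0.21 without BDS 21, BDS 25 and BDS 55. In order of housekeeping factor, lowest first, the ratio was 1.40 in BDS 21, 1.62 in BDS 25, 1.45 in BDS 55, 1.88 in BDS 35, 1.49 in BDS 7 and 1.73 in BDS 43. Of 15 pairs of the 6 receptors other than Tlr8, this was the 1 pair whose groups did not overlap, where 0.304% of all pairs of tested genes did not. Of the ratios of other tested genes to Tlr4, 0.562% had all BDS samples below all controls. The pair was chosen after its values were seen and was given no test. Tlr3 over Tlr4 was 1.46 ± 0.16 in BDS and 1.78 ± 0.14 in controls, and Tlr5 over Tlr4 was 0.903 ± 0.095 and 1.08 ± 0.14 in BDS and controls (SD, n = 6 each), both with overlapping groups. Tlr9 over Tlr3 differed by only -0.02 on the log2 scale, at 1.09 ± 0.05 in BDS and 1.11 ± 0.09 in controls.

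**Figure D4:**
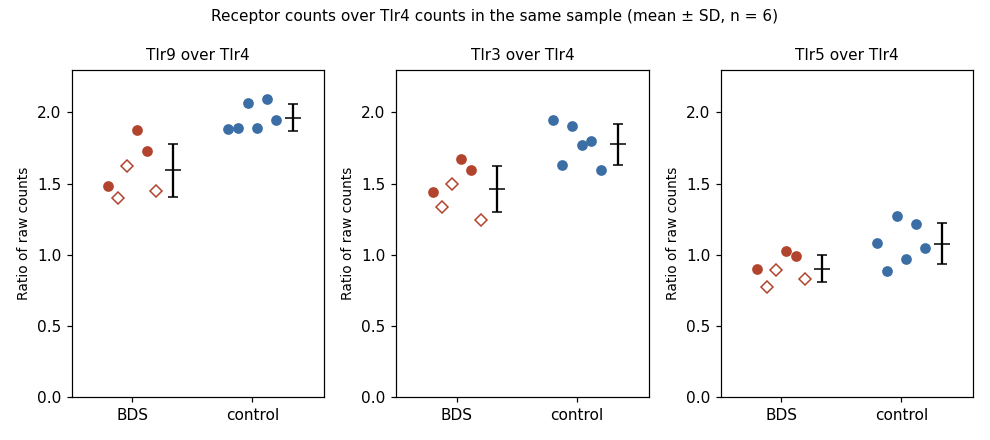
Each panel plots the raw count of 1 receptor divided by the raw count of Tlr4 in the same sample, BDS in red (open diamonds for BDS 21, BDS 25 and BDS 55) and control in blue, with mean ± SD over 6 samples in black. The 6 BDS samples lie below all controls for Tlr9, between 1.40 and 1.88, and the groups overlap for Tlr3 and Tlr5.

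Endosomal and surface receptors were set against each other as the mean log2 level of the endosomal members minus that of the surface members in each sample. With Tlr3 and Tlr9 as the endosomal members, the value was 2.25 ± 0.24 in BDS and 2.40 ± 0.09 in controls (SD, n = 6 each), a difference of -0.14. It ran from 1.92 to 2.50 in BDS and from 2.26 to 2.49 in controls, so the groups overlapped. With Tlr8 included the value was -0.21 ± 0.23 in BDS and -0.32 ± 0.12 in controls, a difference of 0.11, and the direction was turned by a gene near background. Neither difference exceeded the spread between BDS samples. The surface receptors Tlr5 and Tlr1, at -0.36 each, had log2 fold changes near those of Tlr9 and Tlr3. The 2 lowest BDS samples without Tlr8 were BDS 55 at 1.92 and BDS 7 at 2.02. Among BDS samples these had the highest levels of the surface receptor Tlr2, at 107.7 and 102.6 normalized counts, where control 27 had 103.1. BDS 7 also had the highest level of Tlr1 and of Tlr4 among BDS samples.

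**Figure D5:**
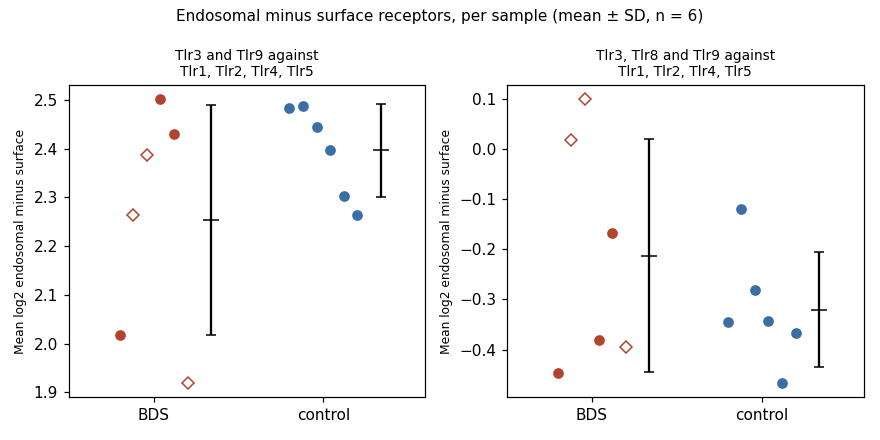
Points give the mean log2 level of endosomal minus surface receptors per sample, without Tlr8 on the left and with it on the right, BDS in red (open diamonds for BDS 21, BDS 25 and BDS 55) and control in blue, with mean ± SD over 6 samples in black. The groups overlap in both panels, and the BDS mean is the lower one without Tlr8 and the higher one with it.

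The other genes of the pathway were read from 7 lists, with 55 present genes, of which 40 had log2 fold changes below 0, 5 were lower and 1 was higher at an unadjusted p under 0.05 (edgeR; 0 passed the adjusted threshold). Those below 0 were 72.7% of the listed genes against 66.1% of all tested genes, the lower ones 9.09% against 11.5%, and the higher one 1.82% against 0.84%, so the lists lay near the panel. Their median log2 fold change was -0.15, against -0.10 for all tested genes. Of the 3 co-receptors on the panel, 0 lay below 0. Cd14, which hands lipopolysaccharide to Tlr4, was at 6886 ± 741 normalized counts in BDS and 6730 ± 578 in controls, Ly96, the subunit of the Tlr4 complex that binds it, was at 48.9 ± 13.5 and 48.4 ± 12.3 in BDS and controls, and Cd36 had a log2 fold change of 0.20 (edgeR, adjusted p = 0.59).

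Among 9 adaptors and proximal kinases, 6 lay below 0 (66.7%, against 66.1% of all tested genes) and 2 were lower at an unadjusted p under 0.05 (22.2%, against 11.5%). Traf6, the ubiquitin ligase downstream of the IRAK kinases, was at 1245 ± 218 normalized counts in BDS and 1498 ± 119 in controls, and Irak2, one of those kinases, was at 4718 ± 426 and 5375 ± 567 in BDS and controls (SD, n = 6 each; edgeR, adjusted p = 0.38 for both). Of 7 kinases of the branch, 6 lay below 0 (85.7%, against 66.1% of all tested genes). None had an unadjusted p under 0.05, where 11.5% of all tested genes were lower. Their log2 fold changes ran from -0.72 (Ikbke) to 0.12. Ikbke was at 262.2 normalized counts in control 44 and at 39.7 to 81.9 in the other 5 controls, and its group medians were 58.6 in BDS and 59.7 in controls. Of 10 transcription factors, 9 lay below 0 (90%, against 66.1% of all tested genes) and 1 was lower at that level (10%, against 11.5%). This was Nfkb1, which encodes the p50 subunit of NF-kB, at 3063 ± 494 normalized counts in BDS and 3647 ± 185 in controls (edgeR, adjusted p = 0.34).

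Among 10 inhibitors, 7 lay below 0 (70%, against 66.1% of all tested genes) and 1 was lower (10%, against 11.5%). This was Tnfaip3, a ubiquitin-editing enzyme that ends NF-kB signalling, at 736 ± 179 normalized counts in BDS and 961 ± 211 in controls (edgeR, unadjusted p = 0.042, adjusted p = 0.38). Of 13 cytokines and other targets of the pathway, 10 lay below 0 (76.9%, against 66.1% of all tested genes). None was lower at an unadjusted p under 0.05, where 11.5% of all tested genes were lower and 0.84% higher. Il6 was higher at that level, with 23.0 ± 7.8 normalized counts in BDS and 15.0 ± 3.1 in controls, close to background (edgeR, adjusted p = 0.27). Of 3 cytosolic sensors, 2 lay below 0 (66.7%, against 66.1% of all tested genes). At an unadjusted p under 0.05, 1 was lower (33.3%, against 11.5%). That one, the RNA sensor Ddx58, was at 939 ± 167 normalized counts in BDS and 1139 ± 108 in controls, and Ifih1, a related sensor, was at 402 ± 66 and 488 ± 83 in BDS and controls (SD, n = 6 each; edgeR, adjusted p = 0.38 for both). Tmem173, the adaptor of the cytosolic DNA sensor, had a log2 fold change of 0.33 near background, at 21.9 ± 9.2 normalized counts in BDS and 17.0 ± 6.5 in controls (edgeR, adjusted p = 0.61).

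Likeness of profile was measured as the root mean square difference, over the 12 samples, of log2 levels set to the control mean. For Tlr9 the nearest receptor was Tlr3, at 0.089, and the nearest genes outside the family were Il6st, at 0.093, and Cd82, at 0.102, where the median over other tested genes was 0.42. For Tlr3 the nearest genes outside the family were Notch1 (0.108) and Tgfbr2 (0.111). For Tlr5 they were Il6st (0.112) and Tgfbr2 (0.125), and its nearest receptor was Tlr9 (0.104). The surface receptors Tlr1, Tlr4 and Tlr2 were nearest to genes outside the family, Tlr1 to Smad5 (0.127), Tlr4 to Il10ra (0.072) and Tlr2 to Tgfbr1 (0.157). These profiles share the samples and the scaling, so the distances are a description.

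Markers of other cells that carry Toll-like receptors were measured beside them. Of 12 B cell markers 6 were present, with a summed level of 3887 to 5242 normalized counts in BDS and 3987 to 4488 in controls, and Cd22, Pax5 and Cr2 were above background in 0 of 12 samples. Most of that sum was Blnk, at 3462 ± 372 normalized counts in BDS and 3078 ± 155 in controls. The median log2 fold change of the 6 was 0.19, against -0.10 for all tested genes. Of the 6, 2 lay below 0 (33.3%, against 66.1% of all tested genes). Tnfrsf13b, a receptor for the cytokines BAFF and APRIL, was higher at an unadjusted p under 0.05, at 40.7 ± 15.1 in BDS and 26.5 ± 2.5 in controls (edgeR, unadjusted p = 0.020, adjusted p = 0.29). Its control values were near the background limit, which was 15.3 to 21.3 raw counts in controls. Of the markers of plasmacytoid dendritic cells, which carry Tlr9, 4 were on the panel and present. They had a summed level of 2796 to 5154 in BDS and 3796 to 5155 in controls. Their median log2 fold change was -0.33, against -0.10 for all tested genes. Most of that sum was Tcf4, at 3452 ± 1038 normalized counts in BDS and 4330 ± 531 in controls (edgeR, adjusted p = 0.40), a transcription factor that many other cells express. Among markers of blood monocytes and border macrophages, Ccr2 was present, at 292 ± 73 normalized counts in BDS and 377 ± 76 in controls (edgeR, unadjusted p = 0.049, adjusted p = 0.38), and Cd163 was above background in 0 of 12 samples. Of 8 T cell markers on the panel 2 were present and 5 were above background in 0 of 12 samples, with a summed level of 80.8 to 128.1 in BDS and 77.6 to 121.2 in controls. Lck, a kinase of the T cell receptor, was lower at 23.7 ± 4.5 normalized counts in BDS, near background, and 34.3 ± 6.5 in controls (edgeR, unadjusted p = 0.0093, adjusted p = 0.25). Both endothelial markers were present, with a summed level of 915 to 1287 in BDS and 943 to 1334 in controls. Cdh5, the cadherin of endothelial junctions, was lower at 116 ± 17 in BDS and 145 ± 23 in controls (edgeR, unadjusted p = 0.040, adjusted p = 0.38). None of the 7 present markers of neutrophils, NK cells and neural cells had an unadjusted p under 0.05. Across all 357 tested genes, 11.5% were lower and 0.84% higher at that level. The calls of single markers above are to be read against these shares. The part of these cells in the receptor values was not tested.

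In the authors' deposited table the fold of BDS over control was 0.76 for Tlr9, 0.77 for Tlr3, 0.79 for Tlr5 and 0.79 for Tlr1, with p-values of 0.0049, 0.0124, 0.0244 and 0.153. The authors' deposited table also gives a fold of 1.33 for Tlr8, with 58% of samples above background, where 5 of 12 were above the limit used here.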

How the data were processed

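Per the file headers, the deposited non-normalized table holds raw barcode counts per probe, for 12 samples. Per the labels' protocols, 2 ng of RNA were converted to cDNA and amplified before hybridization. The authors' second table holds normalized values rounded to whole numbers, which were handled as scores. Per the file headers, its other columns are the percent of samples above background, a ratio (fold of BDS to control) and a p-value without adjustment. The software for barcode reading was not given in the sources used here.

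Scaling used 6 housekeeping genes (Tbp, Sdha, Polr1b, Oaz1, Gapdh and Alas1), whose geometric mean divided the counts of each sample. Genes above the mean plus 2 SD of 8 negative controls in 5 of 12 samples were tested (357 of 545). BDS and control were set against each other by the quasi-likelihood test of edgeR 4.0.16 (R 4.3.3, no covariates), with Benjamini-Hochberg adjustment over all tested genes. Per-sample scores used log2(normalized count + 1). Alternatives used DESeq2 1.42.0, limma 3.58.1, other scalings and filters, and left-out samples. Quality measures were compared with exact permutation tests over 924 rearrangements.

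The text names all members, up to 3 genes per list by p, and the nearest profiles. Some cell type markers are not reported here. Members and lists were chosen with earlier results of these data known. Some receptor pairs and the scores without Tlr8 were added after seeing the data. All 7 receptor accessions matched the same symbol in RefSeq on GRCm38.p6. The files name no build. Counts carry no molecular identifiers, so PCR error adds to counting error.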

Additional observations from a re-analysis of the deposited data

Results flagged for a closer look

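BDS 7 stood far above the other BDS samples in Tlr1, at 1694 normalized counts, where the other 5 ran from 664 to 939. It was the 1 sample that stood apart in 26 groups of 6 samples checked, and chance does this in about 1 of 20 groups. Tlr2 and Tlr4 in BDS 7 were 0.24 and 0.17 above the control mean (log2), while Tlr9 was -0.23.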

How the results depend on the processing

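Over 28 alternatives, the log2 fold changes of Tlr9, Tlr3, Tlr5, Tlr1 and Tlr2 stayed below 0, from -0.49 to -0.19 for Tlr9 and from -0.48 to -0.16 for Tlr3. Tlr4 turned to 0.023 without BDS 21, BDS 25 and BDS 55. Tlr9 had an unadjusted p under 0.05 in 28, Tlr3 in 27 and Tlr5 in 25 of 28. Tlr1 had it in 3, Tlr4 in 2 and Tlr2 in 0 of 28. The alternatives reuse the same samples, so these counts are not independent repeats. The adjusted p of Tlr9 ran from 0.039 to 0.79 and passed the threshold in 2, DESeq2 with housekeeping size factors and voom with quality weights. Under voom Tlr1, Tlr3 and Tlr5 passed too. Genes past the adjusted threshold numbered 6 with that DESeq2 fit, 16 with voom and 0 to 4 with 1 sample left out (4 without BDS 7). Genes at an unadjusted p under 0.05 numbered 29 with DESeq2 size factors in edgeR, 27 with DESeq2 and its own size factors, 96 with voom, 22 with the housekeeping covariate, 20 without BDS 21, BDS 25 and BDS 55, and 26 to 95 with 1 sample left out (95 without BDS 7, 26 without BDS 25 and 26 without BDS 55). Receptors among them numbered 5 with voom, where 96 of 357 tested genes were called, against 3 in the main fit, where 44 of 357 were. They numbered 1 without those 3 samples, where 20 of 362 genes were called. With 1 sample left out they numbered 3 to 5, with 5 without BDS 7, where 95 of 351 genes were called. The endosomal minus surface difference was 0.11 and turned to -0.14 with the filter on all 12 samples, which drops Tlr8, to -0.14 without Tlr8, to -0.012 without BDS 21, BDS 25 and BDS 55, to -0.080 without both, and ran from -0.18 to 0.14 with 1 sample left out. It was below 0 without control 9, control 27, control 54, BDS 7 or BDS 43, where Tlr8 no longer passed the filter. The Tlr9 over Tlr4 difference ran from -0.36 to -0.27 with 1 sample left out. No paired analysis was possible because the groups share no replicate number. Low counts limit Tlr8 and Tlr2.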
